A study of Mus musculus with 4 samples.

Results

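Neuropeptide precursor genes encode the long proteins from which cells cut short signalling peptides. The 10 genes described here are Pnoc, Penk, Pdyn, Cck, Npy, Tac1, Sst, Vip, Gal and Nts, out of 21154 mouse genes with a named probe on the array. They were picked by name with results of the adult and embryonic comparison in view, above all those of Pnoc and Cck, so their levels and differences are given as a description and carry no p-value. Their probes were found through the RefSeq transcript accession stored with each probe.

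The RNA came from thymospheres, the floating clumps of cells that grow when a digested thymus is kept in dishes that cells cannot stick to. All mice were C57Bl6/N. The adult group came from the thymus of mice 5 to 6 weeks old and the embryonic group from fetal thymus taken at embryonic day 14.5, with 2 samples in each. All 4 samples were grown as primary spheres for 7 days, with fresh medium on day 5, in a medium with B27 supplement, hydrocortisone, insulin, EGF and bFGF, and whole spheres of mixed cells were then lysed. Each sample had a 1-colour Agilent array of its own on a shared slide, where group and slide position cannot be told apart. The labels speak of biological and of technical replicates without assigning arrays to either, so each SE and p-value below covers the spread among these samples alone, and that spread may be technical.

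A precursor enters the secretory pathway, is cut at basic residues by proprotein convertases, is trimmed and often amidated, and its peptides are stored in dense-core granules until the cell releases them. The peptides act mostly through G protein-coupled receptors and are broken down by peptidases on or near the target cell. Nerve fibres, endocrine cells and thymic epithelial cells are among the places where such peptides have been described in the thymus. The RNA of a precursor shows neither the peptide nor its release.

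The opioid precursor gene Pnoc was bright in embryonic spheres and near the negative control spots in adult spheres, while the cholecystokinin gene Cck was bright on all 4 arrays and 9.95-fold higher in adult spheres. Npy, for neuropeptide Y, was 3.46-fold higher in embryonic spheres, and Nts, for neurotensin, was well above background in adult spheres alone. The levels of Gal, for galanin, overlapped between the groups. Penk, for the enkephalins, stood higher in embryonic spheres with a wider spread. Pdyn, Tac1, Sst and Vip did not enter the comparison, because no group had its probe marked well above background on both arrays.

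That mark, set per spot by the scanner software, was the condition for testing a gene, and 6 of the 10 precursors met it against 13667 of the 21154 named genes. On the single arrays 8 and 5 of the 10 had such a probe in adult spheres and 6 and 5 in embryonic spheres. The corresponding shares were 80% and 50%, then 60% and 50%, and those of all named genes were 81.4% and 59.1%, then 63.5% and 52.3%. In each group the array numbered 1 had more spots with the mark. Of all spots, 71.6% and 49.6% carried the mark on the adult arrays, against 48.3% and 35.7% on the embryonic arrays, none was saturated, and having 4 arrays limits the precision.

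The scale of all log2 values here is the processed signal of a probe over the 75th percentile of its array. On this scale the median of all genes tested lay 0.79 higher in embryonic spheres, so each difference, always embryonic minus adult, can be read against 0.79. With limma and Benjamini-Hochberg adjustment at a threshold of 0.05, 53.7% of all genes tested were called, 36.2% as higher and 17.5% as lower in embryonic spheres. Of all calls, 67.4% were higher, a share that became 85.3% when arrays were centred on their median probe and 25.8% with each array centred on the tested genes. Among the precursors tested 4 were called, Pnoc and Npy as higher and Cck and Nts as lower, and since this contrast led to their choice nothing is read from that count. The median difference of the 6 was 0.66. Without adult array 1, or without adult array 2, limma called 0 genes, and 6500 and 5968 genes respectively had an unadjusted p under 0.05.

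**Figure D1:**
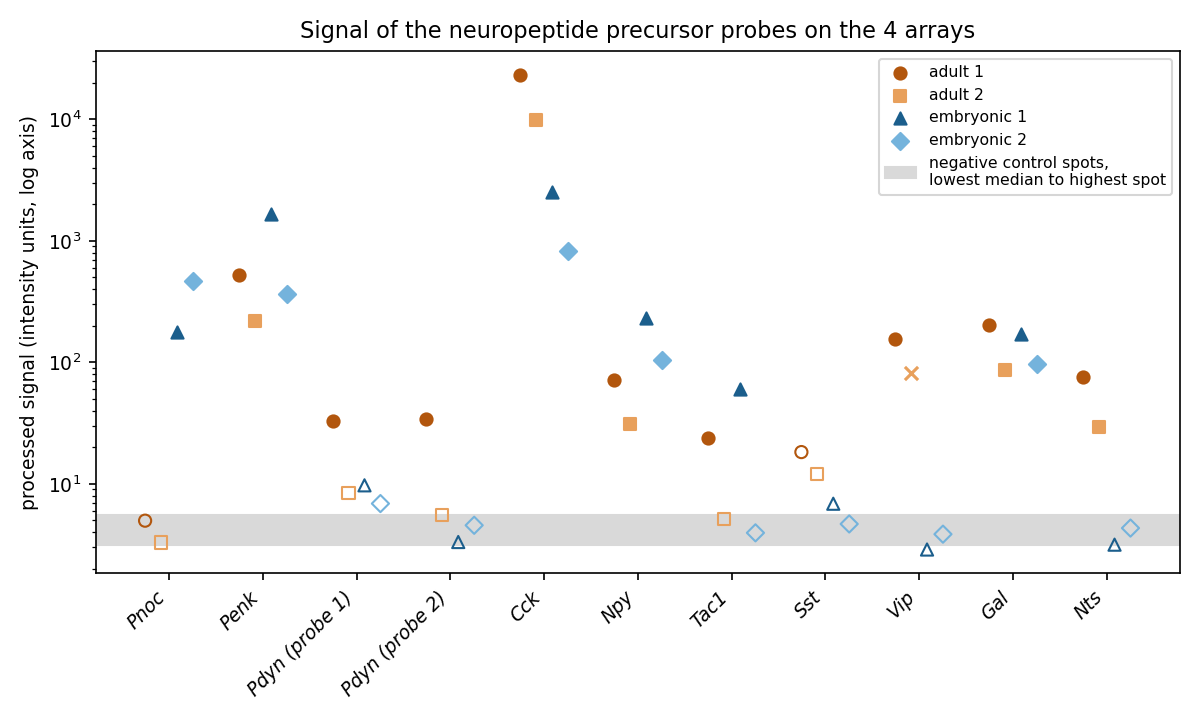
Processed signal of each precursor probe (log axis, intensity units) on the 2 adult and the 2 embryonic arrays. Filled symbols were well above background, open ones were not, the cross is the outlier-marked Vip spot on adult array 2, and the grey band runs from the lowest array median (3.16) to the highest spot (5.56) of the negative controls. Pnoc lies in the band on the adult arrays, and Nts and Vip lie in or just under it on the embryonic arrays. Brightness cannot be compared between probes.

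Promoter sequence is shown for Cck and Nts, which were higher in adult spheres, for Npy, which was higher in embryonic spheres, and for Vip and Sst, whose promoters are textbook examples of control by cyclic AMP. Each line gives the 200 bases before the annotated start, 5′ to 3′ in the direction of the gene, from RefSeq for build GRCm38.p6. Capitals mark the core of the cyclic AMP response element, TGACG, searched on both strands, or in Sst the whole palindrome TGACGTCA, which contains the core on each strand.
Cck, chr9:121495695-121495894, minus strand: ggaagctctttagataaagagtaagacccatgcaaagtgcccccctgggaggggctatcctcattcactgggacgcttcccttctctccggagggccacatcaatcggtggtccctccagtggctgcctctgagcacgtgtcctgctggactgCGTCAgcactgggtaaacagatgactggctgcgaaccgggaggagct
Nts, chr10:102490419-102490618, minus strand: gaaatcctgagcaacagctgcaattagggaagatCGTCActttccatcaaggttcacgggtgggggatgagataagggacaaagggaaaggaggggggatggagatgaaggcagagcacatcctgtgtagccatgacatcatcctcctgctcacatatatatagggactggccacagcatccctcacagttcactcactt
Vip, chr10:5639018-5639217, plus strand: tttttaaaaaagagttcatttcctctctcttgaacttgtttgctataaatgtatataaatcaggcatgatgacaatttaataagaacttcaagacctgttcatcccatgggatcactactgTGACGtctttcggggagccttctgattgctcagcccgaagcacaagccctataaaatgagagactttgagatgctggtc
Sst, chr16:23890845-23891044, minus strand: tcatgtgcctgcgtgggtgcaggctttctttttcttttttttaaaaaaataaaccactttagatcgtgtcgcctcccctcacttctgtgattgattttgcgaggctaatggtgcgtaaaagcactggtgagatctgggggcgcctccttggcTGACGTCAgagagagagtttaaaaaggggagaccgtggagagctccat
Npy, chr6:49822510-49822709, plus strand: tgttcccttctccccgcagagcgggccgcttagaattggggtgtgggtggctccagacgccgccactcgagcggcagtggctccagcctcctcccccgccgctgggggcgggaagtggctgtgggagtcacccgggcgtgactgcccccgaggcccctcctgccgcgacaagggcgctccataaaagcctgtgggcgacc

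The table of promoters held 8 of the 10 genes, all but Pnoc and Penk. In the 250 bases before the start, the core stood in 5 of the 8 genes, namely Tac1, Cck, Vip, Nts and Sst. Counted by window, it stood in 5 of the 9 windows of these 8 genes and in 17.8% of all 32851 promoter windows of that length. Counted by its first base, the match began 47 bases before the start in Cck, 79 in Vip and 166 in Nts. Sst held the palindrome 48 bases before the start, a sequence found in 1.55% of all windows. No match was found for Pdyn, Npy or Gal. A match in letters is not a measured binding site, and the genes with a core include Cck and Nts, called lower in embryonic spheres, as well as Tac1, whose groups overlapped.

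Pnoc encodes prepronociceptin, the precursor of nociceptin, the ligand of the opioid-like receptor Oprl1. Its probe A_51_P450469 (transcript NM_010932) gave a processed signal of 4.97 and 3.28 on the adult arrays, against 178 and 464 on the embryonic arrays. Both embryonic values were far above both adult values. On adult array 2, 34.1% of the negative control spots were as bright as the Pnoc spot or brighter. On adult array 1 none was, and the spot stood at 1.23 times the brightest of them.

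Since the probe was not well above background in adult spheres, only a lower bound can be given there. In embryonic spheres Pnoc was higher by at least 20.7-fold, and its fitted log2 difference was 6.24 (SE 0.80). The log2 levels were -4.73 and -4.33 in adult spheres and 0.50 and 2.92 in embryonic spheres. The embryonic arrays themselves were thus 2.42 log2 units apart, with embryonic array 2 the brighter. A gap as large in that direction was found in 0.164% of the 10957 genes well above background on both. Background correction with normexp brought the log2 difference to 2.40, which is less than the bound, and the deposited value table brought it to 3.86. In bulk RNA of this kind, fewer cells of a type and less RNA per cell cannot be told apart.

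Penk encodes proenkephalin, the source of the enkephalins, which act on the delta and mu opioid receptors. Probe A_55_P2035946 (NM_001002927) read 524 and 220 on the adult arrays, against 1664 and 363 on the embryonic arrays, well above background on each. After scaling, the log2 levels were 1.99 and 1.73 in adult spheres and 3.72 and 2.56 in embryonic spheres. The groups did not overlap on that scale, but embryonic array 2 lay much closer to the adult arrays than embryonic array 1 did.

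The Penk difference was 1.28 (SE 0.46), which was not called. It went from 1.86 without embryonic array 2 to 0.70 without embryonic array 1, and stood at 0.41 after quantile normalization, all with the same sign. It was called in 5 of 17 other settings, namely with an intensity trend, with a replicate block, with signal asked on all 4 arrays, centred on all probes (2.47) and without embryonic array 2. Penk and Pnoc thus had the opposite embryonic array as their brighter one. For Penk the gap between embryonic array 2 and embryonic array 1 was -1.16 on the log2 scale.

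Pdyn encodes prodynorphin, the source of the dynorphins, which act on the kappa opioid receptor. Its probe A_52_P586928 (NM_018863) read 33.0 and 8.35 on the adult arrays, against 9.71 and 6.87 on the embryonic arrays. The other probe of the same transcript, A_66_P123898, read 34.3 and 5.57, then 3.32 and 4.55. Both probes were well above background on adult array 1 alone, and on the latter probe 53.4% and 46.2% of the negative control spots reached its signal on the embryonic arrays. The bound for a difference fell below 1, so no fold is given.

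Cck encodes the precursor of cholecystokinin, a peptide of gut endocrine cells and of many neurons. Probe A_55_P1977431 (NM_001284508) read 23357 and 9802 on the adult arrays, against 2497 and 826 on the embryonic arrays. Every array was far above its negative control spots, and the groups did not overlap. The log2 levels were 7.47 and 7.21 in adult spheres and 4.30 and 3.75 in embryonic spheres.

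The Cck difference of -3.32 (SE 0.35) is a 9.95-fold higher level in adult spheres. Over 17 other settings it ran from -4.25 to -2.13, always with the same sign, and it was called in the 15 of them that kept both adult arrays. Adult spheres therefore held the high level under each scaling tried, including the one that favoured embryonic spheres most.

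Nts encodes the precursor of neurotensin and neuromedin N. Probe A_51_P485756 (NM_024435) read 75.9 and 29.1 on the adult arrays, each time well above background. On the embryonic arrays it read 3.15 and 4.32, where 68.9% and 61.1% of the negative control spots were as bright or brighter. Nts was higher in adult spheres by at least 2.72-fold, and its fitted log2 difference was -3.59 (SE 0.55).

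The fitted Nts value changed with the processing. It was -0.91 with normexp, where Nts was not called, and -1.39 in the deposited value table, and both are smaller than the bound. Over all 16 other settings the sign stayed the same.

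Vip encodes vasoactive intestinal peptide, which relaxes smooth muscle and acts on immune cells. Its probe A_51_P368313 (NM_011702) read 154 on adult array 1. On the embryonic arrays it read 2.88 and 3.85, where 95.4% and 91.7% of the negative control spots were as bright or brighter. The spot on adult array 2 read 81.2, which is 20.8 times the brightest negative control spot, but the scanner software had marked it as an outlier and it was left out.

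With adult array 1 alone, Vip was higher in adult spheres by at least 6.32-fold, a value with no replicate. With outlier-marked spots kept, an alternative chosen after seeing the data, the log2 difference was -4.99 (SE 0.54). Adult array 2 had 2756 spots marked in this way, against 185, 120 and 95 on the other arrays.

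Sst encodes the precursor of somatostatin, which inhibits the release of many hormones. Its probe A_51_P262489 (NM_009215) was printed 10 times on each array. The spots averaged 18.2 (SD 7.24, from 8.04 to 34.4) and 12.1 (SD 9.13, from 2.93 to 26.2) on the adult arrays. On the embryonic arrays they averaged 6.85 (SD 4.78, from 2.88 to 18.2) and 4.67 (SD 0.815, from 3.87 to 6.40). The array means were higher in adult spheres, but single spots of the groups overlapped.

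Only 4 of the 10 Sst spots were well above background on each adult array and none on either embryonic array. The majority of spots decided, so Sst counted as not well above background on any array. On embryonic array 2 the mean was reached by 38.9% of the negative control spots.

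Nts and Vip thus gave signal on adult arrays and none above the negative controls on embryonic ones, and Pdyn was well above background on adult array 1 alone. Probes for receptors of smell, taste, pheromones and trace amines, genes mostly limited to sensory cells, were also marked more often on adult arrays. Of 1500 and 1407 such probes measured in adult spheres, 51.5% and 24.7% carried the mark, and of 1503 on each embryonic array 6.12% and 2.26% were. Their median processed signal was 18.3 and 4.09 on the adult arrays, against 3.51 and 4.63 on the embryonic arrays, and their 90th percentile was 116 and 40.6, then 11.0 and 8.42. The part of this signal in the levels of Nts, Vip and Pdyn was not tested.

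Npy encodes the precursor of neuropeptide Y, a peptide of sympathetic neurons that also drives feeding. Probe A_51_P454873 (NM_023456) read 72.0 and 31.3 on the adult arrays, against 231 and 105 on the embryonic arrays, well above background on each. The log2 levels were -0.87 and -1.08 in adult spheres and 0.87 and 0.77 in embryonic spheres. The groups did not overlap, and arrays of a group lay close together.

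The Npy difference was 1.79 (SE 0.31), a 3.46-fold higher level in embryonic spheres. It ran from 0.87 with normexp to 2.98 with each array centred on all probes, and was 1.11 when centred on the tested genes. The sign was the same in all 17 other settings.

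Gal encodes the precursor of galanin, a peptide of neurons and endocrine cells. Probe A_51_P258281 (NM_010253) read 203 and 85.9 on the adult arrays, against 170 and 97.2 on the embryonic arrays. The log2 levels were 0.62 and 0.38 in adult spheres and 0.42 and 0.66 in embryonic spheres, so the groups overlapped. The difference was 0.04 (SE 0.31), below the median of all genes, and it changed sign with the setting, from -0.64 centred on the tested genes to 1.23 centred on all probes. The sign was kept in 11 of 17 settings, and the value does not show that the levels were alike.

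Tac1 encodes the precursor of substance P and neurokinin A. Probe A_55_P1954693 (NM_009311) read 24.0 and 5.17 on the adult arrays, against 60.6 and 3.95 on the embryonic arrays. The array numbered 1 was well above background in each group and the other was not, so the groups overlapped. Before scaling, embryonic array 1 was 15.4 times as bright as embryonic array 2, on which 85.7% of the negative control spots reached the Tac1 signal.

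**Figure D2:**
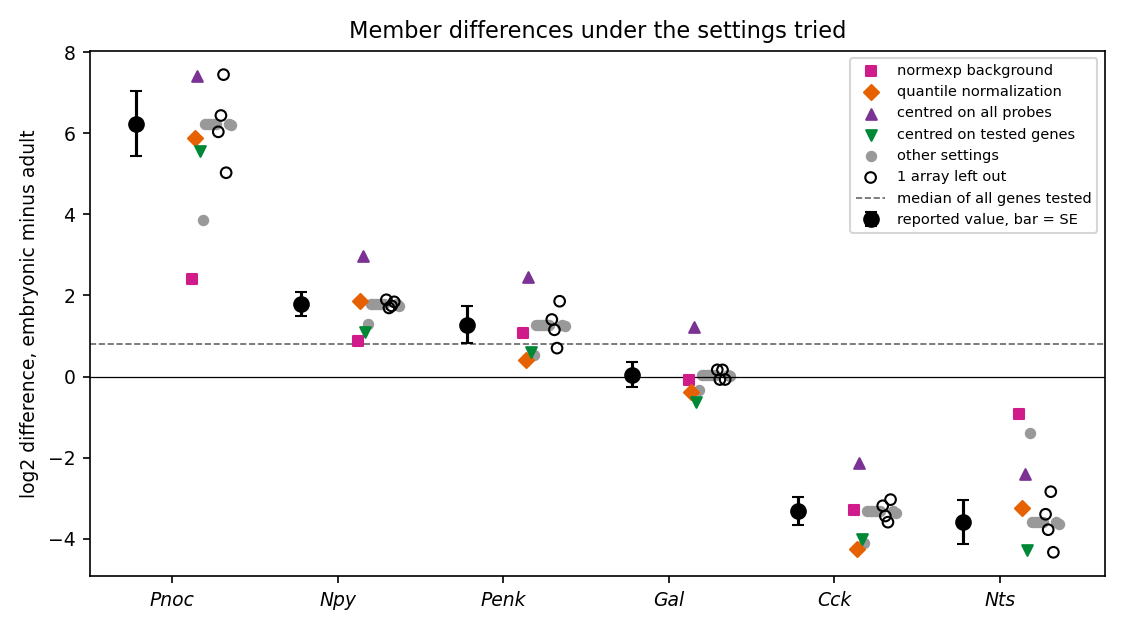
Log2 difference, embryonic minus adult, of the 6 precursors that were tested. Black points with bars are the values given in the text with their SE, the other symbols are the alternative settings, open circles leave out 1 array, and the dashed line is the median of all genes tested (0.79). Cck stays between -4.25 and -2.13 and Npy between 0.87 and 2.98, while Gal lies on both sides of 0 and Pnoc and Nts move towards 0 with normexp.

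The genes whose pattern over the 4 arrays was nearest to Pnoc were Peg3, Klf15 and Selenbp1. Likeness was the root mean square difference of the log2 values after each gene's own mean was taken off, over 13404 genes. It was 0.65 for Peg3, an imprinted zinc finger gene, 0.90 for the transcription factor gene Klf15 and 0.91 for Selenbp1, a selenium-binding protein gene. The first and second of these were dim in adult spheres too, with bounds of at least 15.7-fold and 9.01-fold. The genes nearest to Cck were Asic5 (0.07), an ion channel gene, Mamdc4 (0.08) and the muscle troponin gene Tnnt3 (0.09). Asic5 and Tnnt3 were dim on both embryonic arrays, unlike Cck. These likenesses describe 4 arrays and carry no test.

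Receptor genes of the 10 peptides were mostly dim, and those called were mostly higher in adult spheres. Of 27 listed, 11 were tested, 1 was called higher and 5 lower in embryonic spheres, with a median difference of -0.39 against 0.79 over all genes. The share called was 54.5%, against 53.7% of all genes. The 5 lower calls were all dim on both embryonic arrays, so these genes were tested only through their adult signal. These calls remained 5 after quantile normalization and both centrings and became 2 with normexp. A p-value printed beside a bound belongs to the fitted difference, which uses the dim signals as read, and not to the bound. Asked for signal on all 4 arrays, 4 receptor genes were left, with 1 called higher and 0 lower. Their median difference was 0.48, against 0.97 over all genes under that rule. With no filter on dim probes the median of all 27 was 0.15, against 0.35 over all genes. The negative median thus depended on the filter.

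The neurotensin receptor gene Ntsr1 was higher in adult spheres by at least 5.37-fold (limma adjusted p = 0.00744), the direction seen for Nts. Its signal was 134 and 64.2 on the adult arrays, against 3.20 and 4.42 on the embryonic arrays, without overlap. The cholecystokinin receptor gene Cckar was higher in adult spheres by at least 4.29-fold (limma adjusted p = 0.00765), with signals of 111 and 49.4, then 3.32 and 4.47. With normexp the log2 differences were -1.166 for Ntsr1 and -1.155 for Cckar. Both are smaller in size than the bounds, which are 2.42 and 2.10 on the log2 scale. Cckbr, for the other cholecystokinin receptor, was not well above background on any array.

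Galr3, for a galanin receptor, was higher in adult spheres by at least 3.67-fold (limma adjusted p = 0.00853). The delta opioid receptor gene Oprd1 was higher by at least 3.53-fold (limma adjusted p = 0.00812) and the neuropeptide Y receptor gene Npy2r at least 3.19-fold higher (limma adjusted p = 0.00874). Npy2r thus went the other way from Npy. The calls of Galr3, Oprd1 and Npy2r were lost with normexp, where each difference was smaller in size than the bound of its gene. These adult levels stand beside the sensory receptor probes above, whose part in them was not tested.

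The nociceptin receptor gene Oprl1, by its tested probe A_55_P2066593, did not share the embryonic pattern of Pnoc. Its signal was 52.9 and 23.3 on the adult arrays, against 30.4 and 21.1 on the embryonic arrays. The log2 difference was -0.39 (SE 0.34, limma adjusted p = 0.353). Its sign was kept in 13 of 16 other settings, and centred on all probes the difference was 0.80. The other Oprl1 probe, A_55_P2066598, went the other way, with a log2 difference of 0.82 and no overlap of the groups after scaling. That probe was not well above background on any array. Sort1, which encodes sortilin, a sorting receptor that also binds neurotensin, was higher in embryonic spheres (1.17, SE 0.38, limma adjusted p = 0.0454). That call was lost in 7 of the 15 other settings that kept both adult arrays.

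**Figure D3:**
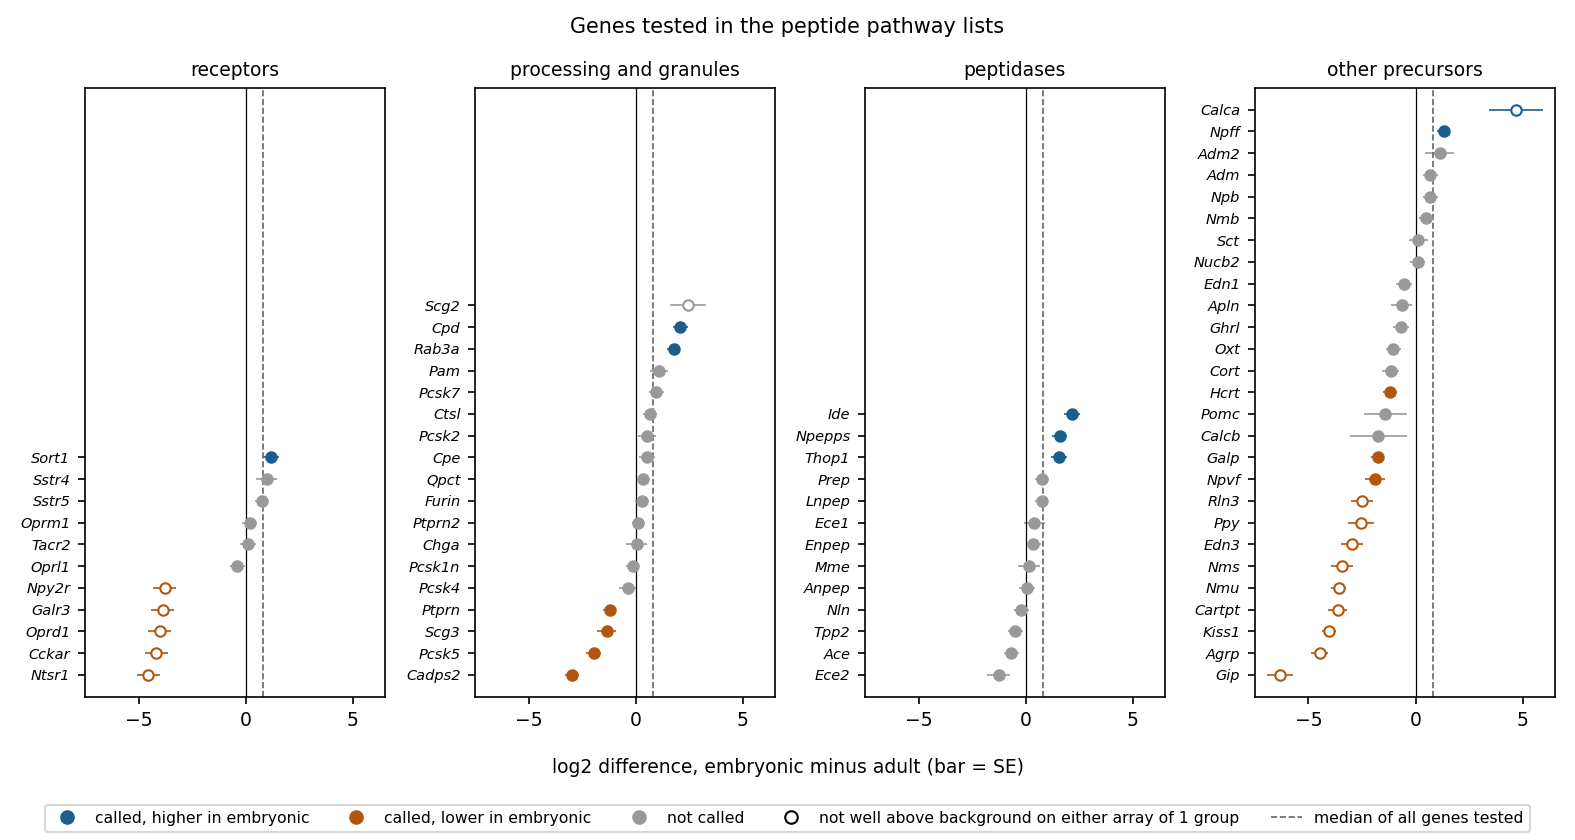
Log2 difference, embryonic minus adult, with its SE for each gene tested among the receptors (11 genes), the processing and granule genes (18), the peptidases (13) and the other precursors (27). Blue was called higher and brown lower in embryonic spheres, grey was not called, and open symbols were not well above background on any array of 1 group. The open brown symbols at the lower left of the receptor and other-precursor panels are genes dim on both embryonic arrays, and the 3 called peptidases lie to the right of the dashed median of 0.79.

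Genes for cutting precursors and storing peptides moved both ways. Of 24 listed, 18 were tested, 2 were called higher and 4 lower in embryonic spheres, with a median difference of 0.32. The share called was 33.3%, against 53.7% of all genes. This split turned with the scaling, to 12 higher and 1 lower with arrays centred on all probes, 3 and 3 after quantile normalization and 4 and 3 in the deposited value table. Cpd, a carboxypeptidase of the Golgi, was higher in embryonic spheres (2.08, SE 0.35, limma adjusted p = 0.0107), and so was Rab3a, a small GTPase of vesicle release (1.77, SE 0.32, limma adjusted p = 0.0118).

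Cadps2, which primes dense-core granules for release, was lower in embryonic spheres (-2.96, SE 0.32, limma adjusted p = 0.00726). Also lower were the convertase gene Pcsk5 (-1.97, SE 0.33, limma adjusted p = 0.0108), the granin gene Scg3 (-1.35, SE 0.44, limma adjusted p = 0.0467) and the granule membrane gene Ptprn (-1.21, SE 0.30, limma adjusted p = 0.0231). Cadps2, Pcsk5 and Scg3 were well above background on 1 embryonic array each. Pcsk5 lost its call in 2 of the 14 other settings with both adult arrays, and its difference without embryonic array 1, where another probe stood for the gene, was -4.25. Scg3 lost its call in 9 of 14, and Ptprn in 4 of 15, with a difference of -0.02 when arrays were centred on all probes.

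The main convertases of neuroendocrine cells differed in detection, which rests on the tested Pcsk2 probe. Pcsk1, for prohormone convertase 1, was not well above background on any array. Pcsk2, for prohormone convertase 2, read 53.6 on adult array 1, against 65.2 and 40.4 on the embryonic arrays, with its adult array 2 spot left out as an outlier. Its difference over these 3 arrays, with 1 adult array, was 0.52 (SE 0.43) and was not called. With outlier-marked spots kept the difference was -0.40. The other Pcsk2 probe, A_55_P1972963, read 17.3 and 3.34 on the adult arrays, against 3.53 and 17.9 on the embryonic arrays. That probe was not well above background on any array.

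Peptidases that break down neuropeptides were widely measured. Of 14 listed, 13 were tested, with a median difference of 0.36, and 3 (23.1%, against 53.7% of all genes) were called, 3 higher and 0 lower in embryonic spheres. With arrays centred on the tested genes 1 was higher and 1 lower, and centred on all probes 9 and 0. Ide, the insulin-degrading enzyme, stood 2.19 higher (SE 0.37, limma adjusted p = 0.0109), Npepps, a puromycin-sensitive aminopeptidase, 1.59 (SE 0.35, limma adjusted p = 0.0170) and Thop1, thimet oligopeptidase, 1.57 (SE 0.36, limma adjusted p = 0.0189). The call of Ide was kept in all 15 settings with both adult arrays, that of Thop1 in 12 and that of Npepps in 10.

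Other peptide precursors called lower in embryonic spheres were mostly dim there. Of 51 listed, 27 were tested, 2 were called higher and 12 lower, with a median difference of -1.19. The share called was 51.9%, against 53.7% of all genes, and 9 of the 12 were dim on both embryonic arrays, so they were tested only through their adult signal. Among the 7 with signal on all 4 arrays 1 was called higher and 1 lower, with a median difference of 0.47. With no filter on dim probes the median of all 51 was -0.65, against 0.35 over all genes. Centred on all probes the split of the 27 tested was 8 higher and 9 lower, and centred on the tested genes 0 and 15. Gip, an incretin gene of the gut, was higher in adult spheres by at least 21.6-fold (limma adjusted p = 0.00726), with signals of 520 and 268 on the adult arrays against 3.48 and 5.49. Its log2 difference was -4.06 in the deposited value table and -2.72 with normexp. Both are smaller in size than the bound, which is 4.43 on the log2 scale.

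The appetite peptide gene Agrp was at least 5.69-fold, the neuromedin U gene Nmu at least 5.58-fold and the kisspeptin gene Kiss1 at least 5.08-fold higher in adult spheres (each limma adjusted p = 0.00726). Cartpt, another appetite peptide gene, was higher by at least 3.50-fold (limma adjusted p = 0.00744) and the neuromedin S gene Nms at least 3.04-fold (limma adjusted p = 0.00914). With normexp the calls of Cartpt and Nms were lost, and the differences of all these genes were smaller in size than their bounds. As for Nts and Vip, the part of the adult sensory receptor signal in these levels was not tested.

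Calca, for calcitonin and the calcitonin gene-related peptide, was higher in embryonic spheres by at least 12.3-fold (limma adjusted p = 0.0290). Its probe was not well above background on either adult array, so it was tested only through its embryonic signal. Its signal was 15.4 and 3.22 on the adult arrays, against 63.0 and 463 on the embryonic arrays, so embryonic array 2 was the brighter, as for Pnoc. The other Calca probe, A_55_P2139942, read 71.5 and 21.1, then 3.07 and 90.2, and its groups overlapped. Without embryonic array 2 the fit took this other probe to represent the gene, at -4.10, while the former probe on its own still stood 2.72 higher in embryonic spheres. The Calca call was lost in 4 of the 14 other settings that kept both adult arrays, and the mean of both probes gave 1.77 (SE 1.56, limma adjusted p = 0.355). With normexp the Calca difference was 1.85, less than the bound, which is 3.62 on the log2 scale. Npff, for neuropeptide FF, was also higher in embryonic spheres (1.31, SE 0.31, limma adjusted p = 0.0210), a call lost in 6 of 15 settings.

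Markers of the cells that could carry these peptides were measured in part. Of 16 neuron markers 7 were detected, that is marked on each array of the group, in adult spheres and 6 in embryonic spheres, and their summed scaled signal was 62.1 and 80.9, then 70.9 and 74.4. Snap25 made up 46.8 and 70.2, then 57.9 and 63.2 of these sums. Of 9 neuron markers tested, 1 was called higher and 4 lower in embryonic spheres, which became 4 higher and 2 lower with arrays centred on all probes. Of the 4 lower calls, 2 were dim on both embryonic arrays, so they were tested only through their adult signal. Among the 4 neuron markers with signal on all 4 arrays, 0 were called higher and 1 lower. The share of neuron markers called was 55.6%, against 53.7% of all genes. Snap25 was bright on all 4 arrays, whereas the defining neuron gene Rbfox3 was not well above background on any. Of 7 neuroendocrine markers 4 and 4 were detected in this way, with a summed signal of 11.9 and 9.78, then 12.9 and 17.6, and Chgb and Neurod1 were not well above background on any array. Calca is in both this list and that of other precursors. Its log2 level was -1.01 on embryonic array 1 and 2.91 on embryonic array 2, where the sum was highest. Of 8 glia and neural crest markers 4 and 2 were detected, with summed signals of 17.5 and 18.0, then 15.7 and 19.3.

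The labelled tissue showed in its markers. All 7 fibroblast markers were detected in both groups, and of 9 thymic epithelium markers 6 were detected in adult and 7 in embryonic spheres. Of the 7 thymic epithelium markers tested, 5 were called higher and 0 lower in embryonic spheres, with a median difference of 2.07 against 0.79 over all genes. Under the other scalings 3 to 7 were higher and 0 lower. Aire and Psmb11 were not tested, and their brightest signals were on adult array 1. Psmb11 read 183 there, with no spot kept on adult array 2, against 6.77 and 4.69 on the embryonic arrays. Aire probe A_55_P2176332 read 42.2 and 12.8, then 3.05 and 4.17. The other Aire probe read 51.2 and 3.57, then 5.92 and 4.91, and its groups overlapped. Macrophage markers were complete with 5 of 5 in each group, 3 called higher and 0 lower, but 0 and 0 when arrays were centred on the tested genes. Of the 4 smooth muscle markers tested, 1 was called higher and 3 lower, 2 of the latter dim on both embryonic arrays. The share called was 71.4% of thymic epithelium, 60% of macrophage and 100% of smooth muscle markers tested, against 53.7% of all genes. It was 50% for tuft cell and endothelium markers and 42.9% for fibroblast markers. For T lineage and neuroendocrine markers it was 40%, and for glia and neural crest markers 0%. These lists are short, and the part of such cells in the precursor levels was not tested. Of 6 tuft cell markers 2 and 1, of 7 T lineage markers 5 and 3, of 5 smooth muscle markers 4 and 2, and of 5 endothelium markers 4 and 1 were detected.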

How the data were processed

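RNA of 4 thymosphere samples, 25 ng each, was labelled with Cy3 and measured on 4 Agilent 1-colour arrays. Per the file headers, the deposited intensity values were extracted with Agilent Feature Extraction 10.7.3.1 (also named in the submitters' processing notes), with background subtraction and spatial detrending inside an array. The deposited value table holds linear intensity with medians of 34.4, 35.0, 35.7 and 35.1. On the log2 scale each column followed the median spot signals of its own array (r of 0.994 to 0.998) more closely than those of any other. Its centring remains unknown, and it served as an alternative.

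Here, the processed signal was divided by the array's 75th percentile over gene spots (132, 66.0, 126 and 61.5) and put on the log2 scale. Control spots and outlier-marked spots were left out and spots of a probe averaged. A probe was well above background if at least 0.5 of its spots were. Of 55681 probes, 28026 were matched through RefSeq accessions to 21154 symbols of GRCm38.p6, used for names only since the headers give mm9. A gene was represented by its brightest probe that met the background rule, complete probes first. All 4 arrays were fitted with limma 3.58.1 (lmFit, eBayes) in R 4.3.3, tested on simulated data, without covariates, and adjusted over all 13667 genes. A gene dim on both arrays of a group was bounded: on its dim arrays the probe was set to the lowest signal that any marked probe had there, unless its own was higher, and the group means were compared. Each bound holds for this scaling and background alone. With normexp, every tested gene given a bound in the text had a difference smaller in size than that bound.

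Dim precursors were set against 294 to 305 negative control spots per array, none well above background. The members and gene lists were chosen with earlier results of these data known. Named are all members, every called gene of a pathway list (the 6 largest where more were called), Oprl1, Cckar, Cckbr, Pcsk1, Pcsk2, the 3 nearest patterns of Pnoc and of Cck, and defining markers. Alternatives were normexp (offset 50), quantile normalization, other centrings, the value table, other filters, probe means, an intensity trend or robust prior, a replicate block and each array left out. Normexp used median spot signals where mean signals had been planned. Keeping outlier spots and taking the percentile over averaged probes were added after seeing the data.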

Additional observations from a re-analysis of the deposited data

Results flagged for a closer look

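The Vip spot on adult array 2, which the scanner software marked as an outlier and which no comparison uses, read 81.2 in processed signal, above the negative control spots of its array, the brightest of which read 3.91. On adult array 1 the Vip probe read 154.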

How the results depend on the processing

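Over the alternatives Pnoc, Penk, Cck, Npy and Nts kept their sign and Gal did not. The number of genes called was 7336, against 3349 with normexp, 4861 after quantile normalization, 11527 centred on all probes, 3776 centred on the tested genes and 2544 with no filter on dim probes. Leaving out each array in turn gave 0 to 7311 genes, 0 to 6 precursors, 0 to 6 receptors, 0 to 9 processing and granule genes, 0 to 4 peptidases and 0 to 19 other precursors, with 0 in each case when an adult array was left out. Receptors called were 2 with normexp, 10 centred on all probes and 1 with signal asked on all 4 arrays. Processing and granule genes called were 3 with normexp, 13 centred on all probes and 3 with no filter. Peptidases called were 9 centred on all probes and 1 with no filter. Other precursors called were 4 with normexp, 9 in the value table, 8 with no filter and 3 with signal asked on all 4 arrays. With signal above the highest 1% of negative control spots as the rule, 8 precursors were detected on adult array 2 in place of 5. Leaving out 1 array gave Calca values from -4.10 (without embryonic array 2, where another probe stood for the gene) to 5.31 (without adult array 1), and the probe of the report alone gave 2.72 without embryonic array 2. The cause of the other changes was not tested. Same-numbered arrays deviated together with r = 0.0707 across 13405 genes, so the numbers were not taken to pair the samples, although the arrays numbered 1 had the higher 75th percentile in both groups, and a replicate block called 7053 genes, 5 precursors, 6 receptors, 8 processing and granule genes, 3 peptidases and 15 other precursors. A signal near the negative control spots limits what the dim probes can show.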

Other observations

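Calca and Scg2 were, like Pnoc, far brighter on embryonic array 2 than on embryonic array 1. Among the 10957 genes well above background on both embryonic arrays, the gap between them was 3.92 log2 units for Calca and 2.59 for Scg2, against 2.42 for Pnoc, and the middle 98% of genes lay between -1.84 and 1.64. Scg2, which encodes the granule protein secretogranin II, read 16.8 and 7.09 on the adult arrays, against 33.0 and 96.4 on the embryonic arrays and was not called (limma adjusted p = 0.0531). It was named after its values were seen.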
